A study of Caenorhabditis elegans with 18 samples.

Results

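Whole wild-type N2 *Caenorhabditis elegans* were fed for 10 or for 3 days on CNCM I-3690 or CNCM I-4317, which are strains of *Lactobacillus rhamnosus*, or on the *E. coli* strain OP50, and the change between the 2 times was compared between the *Lactobacillus* diets and OP50. All 18 arrays of the series entered, 3 for each of CNCM I-3690 at 10 days, CNCM I-4317 at 10 days, OP50 at 10 days, CNCM I-3690 at 3 days, CNCM I-4317 at 3 days and OP50 at 3 days. In the study, OP50 is the standard food, CNCM I-3690 is the strain followed for its antioxidant effect and CNCM I-4317 is the control strain of the same species. For each of 22625 probe sets, the groups of short probes that each read 1 transcript or a family of transcripts, the difference between 10 and 3 days was averaged over both *Lactobacillus* strains and the difference between 10 and 3 days on OP50 was subtracted. This value, called the diet-by-time difference here, is on the log2 scale, where 1 unit is a factor of 2. It is positive where expression increased more, or decreased less, on the *Lactobacillus* diets. The labels name the arrays as separate samples and the Methods call them biological replicates. The Methods give more of them per condition than the 3 arrays analysed here, while the legends of the supplementary gene lists give 3 hybridizations. The labels do not tie the arrays to separate cultures, so the p-values measure only the spread between these samples, which may be technical. A whole worm holds all tissues and the germ line, so fewer cells of a type and less RNA per cell cannot be told apart, and the removal of offspring is described for the lifespan assays of the study but not stated for the worms used on the arrays.

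*C. elegans* grinds bacteria in its pharynx and digests them in an intestine of a few large cells, which is at once gut, liver and fat store. Lysozymes, saposin-like proteins and cathepsin-type proteases made there act on the walls, membranes and proteins of the bacteria, and cytochromes P450 and UDP-glucuronosyltransferases oxidise and conjugate foreign and lipid compounds. Hermaphrodites first make sperm, late in larval life, and then switch to oocytes, so transcripts of sperm proteins and, in large part, of the adult cuticle belong to a short stage around the start of adult life. Yolk proteins, the vitellogenins, are made in the intestine of the adult and taken up by oocytes.

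The change between the times was called for more probe sets than its dependence on the food, a comparison with a larger standard error. Between 10 and 3 days, 8860 probe sets (39.2%) passed limma's test on the *Lactobacillus* diets at an adjusted p under 0.1, and 2437 (10.8%) passed on OP50, where 3 arrays per time against 6 give less power. The diet-by-time difference passed for 184 of 22625 probe sets (0.813%), of which 106 (0.469%) were higher and 78 (0.345%) lower on the *Lactobacillus* diets. The share of the higher ones, 57.6%, was 69.5% with arrays centred on their median and 46.1% after cyclic loess between arrays. Of the 184, 157 carried 1 gene symbol and stood for 151 genes, 18 carried several symbols and 9 carried none. Their sizes had a median of 0.98 and reached 3.38, and the 35 with a size above 2 were 8 higher and 27 lower.

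Some arrays stood apart from the others of their group. In worms fed for 3 days, the summed linear level of 79 sperm genes was 20170, 19880 and 9755 on CNCM I-3690 and 16680, 10550 and 4204 on CNCM I-4317, against 2408, 1138 and 954 on OP50, so that replicate 3 was the lowest of each group. At 10 days, replicate 1 on OP50 had the highest summed level of 27 muscle genes of its group (3734, against 1713 and 1491 on the other arrays) and of 18 moulting genes (269, against 95.4 and 91.7). Without this array 107 probe sets passed, of which 82 were among the 184. Without replicate 3 at 3 days, 864 passed when the CNCM I-3690 array was left out and 584 when the CNCM I-4317 array was left out, both with all 184 among them. At the other end, 41 passed without OP50 replicate 3 at 3 days, so the count moves with single arrays, while *cyp-35A3*, *cyp-35C1* and *ilys-2* kept their calls with any 1 array left out.

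**Figure D1:**
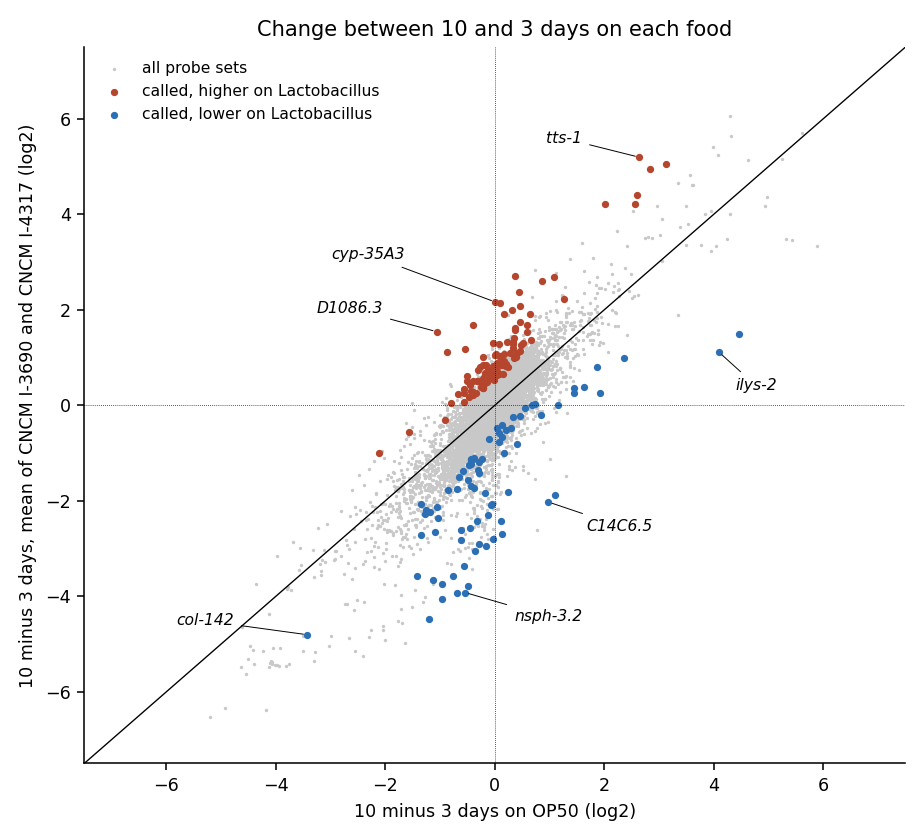
Change between 10 and 3 days on the Lactobacillus diets (mean over both strains, y axis, log2) and on OP50 (x axis, log2) for 22625 probe sets in grey, with the 184 called probe sets in colour, 106 higher in red and 78 lower in blue. The line marks equal change. Red points lie above the line and blue points below it, and *ilys-2*, with a change of 1.12 on the Lactobacillus diets and 4.10 on OP50, increased on both foods.

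Both patterns that could make a diet-by-time difference were present. In the first, the foods differed at 10 days. This was so for 46 of the 106 higher probe sets, for which the *Lactobacillus* diets were called above OP50 at 10 days alone (0.606% of all probe sets were above), and for 18 of the 78 lower ones, called below OP50 at 10 days alone (0.402% of all). In the second, the foods differed at 3 days and no longer passed the test at 10 days, with the *Lactobacillus* diets below OP50 for 41 of the higher (1.29% of all probe sets were below) and above OP50 for 50 of the lower probe sets (2.18% of all). Another 4 higher and 5 lower probe sets were called at both times, in opposite directions, and 15 higher and 5 lower at neither. These diet comparisons use the same arrays as the diet-by-time difference and describe it rather than test it again. Over all probe sets, the foods differed for 228 (1.01%) at 10 days and for 785 (3.47%) at 3 days.

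**Figure D2:**
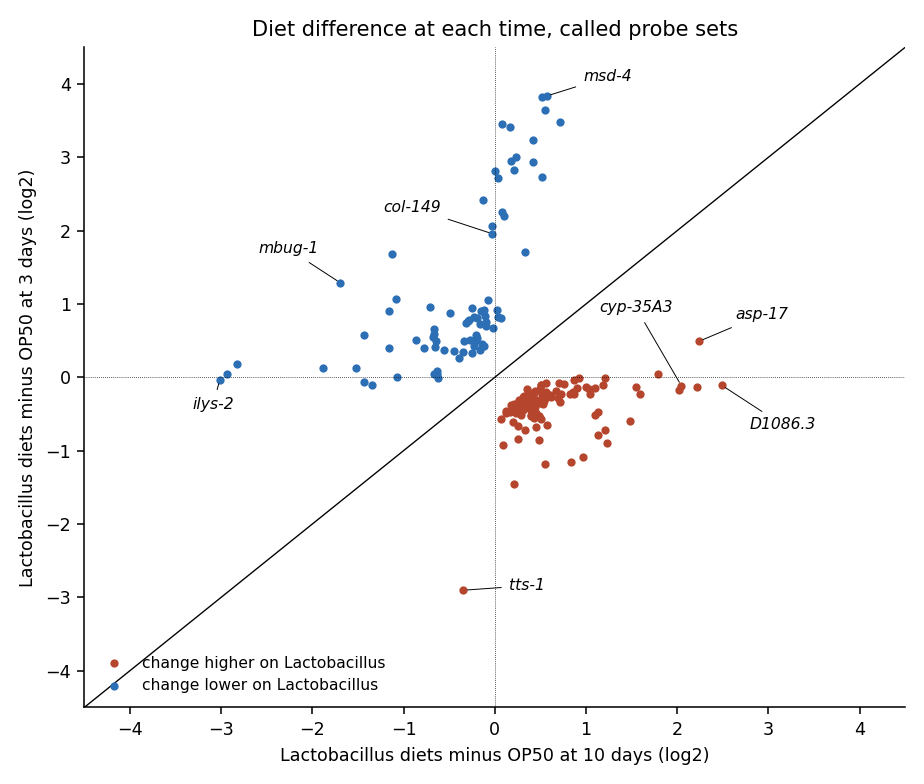
Difference between the Lactobacillus diets and OP50 at 10 days (x axis, log2) and at 3 days (y axis, log2) for the 184 probe sets with a called diet-by-time difference. The points farthest out lie along the x axis (*cyp-35A3*, *asp-17*, *D1086.3*, *ilys-2*) or along the y axis (*msd-4*, *col-149*, *tts-1*), and the line marks an equal diet difference at both times.

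Among the cytochromes P450, *cyp-35A3* was of the first pattern, and *cyp-35C1* was called at both times, in opposite directions. *cyp-35A3*, a cytochrome P450 of the CYP35 subfamily, which is made in the intestine and induced by foreign compounds, was at 2.73, 2.63 and 3.44 on CNCM I-3690 and at 3.06, 2.85 and 3.34 on CNCM I-4317 at 10 days, against 0.96, 1.20 and 0.73 on OP50. In worms fed for 3 days it was at 0.63, 0.83 and 0.97 on CNCM I-3690 and at 0.86, 0.88 and 0.89 on CNCM I-4317, against 0.98, 1.03 and 0.86 on OP50. All 6 *Lactobacillus* arrays of 10 days lay above all 9 arrays of 3 days and above all OP50 arrays of 10 days, and OP50 stayed at the 3-day level, near the floor of the arrays. The diet-by-time difference was 2.16 (standard error 0.22, limma, adjusted p = 0.000333) and the diet difference at 10 days was 2.05 (adjusted p = 5.03e-06), with OP50 below the median of every array.

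*cyp-35C1*, of the same subfamily, was at 6.17, 5.77 and 5.92 on CNCM I-3690 and at 5.66, 5.48 and 5.86 on CNCM I-4317 at 10 days, against 4.35, 4.53 and 4.92 on OP50. At 3 days its order was the other way, with 3.16, 3.04 and 2.84 on CNCM I-3690 and 3.76, 3.74 and 4.08 on CNCM I-4317, against 3.84, 4.30 and 4.32 on OP50. The foods overlapped only at 3 days, between CNCM I-4317 and OP50. The diet difference of *cyp-35C1* was 1.21 at 10 days (limma, adjusted p = 0.000899) and -0.72 at 3 days (adjusted p = 0.0223). Its diet-by-time difference was 1.93 (standard error 0.21, adjusted p = 0.00045), and a second probe set of the gene gave 1.61 (adjusted p = 0.00161). These were the 2 called members among 73 cytochromes P450, of which 51 lay above 0 with a median of 0.10, beside a median of 0.02 over 17118 genes, of which 0.765% were called, 0.415% higher and 0.351% lower. The UDP-glucuronosyltransferases were split. Of 64, *ugt-25* was higher (1.62, standard error 0.30, adjusted p = 0.0324) and *ugt-23* was lower (-1.17, standard error 0.15, adjusted p = 0.00157), and their median was 0.05. *dhs-2*, which encodes a short-chain dehydrogenase, had a difference of 1.68 (standard error 0.34, adjusted p = 0.0525), with 2.65 to 4.05 on the *Lactobacillus* diets at 10 days, against 1.75 to 2.23 on OP50. Its adjusted p was 0.161 at most with 1 array left out, the call being lost without OP50 replicate 3 at 3 days, CNCM I-3690 replicate 1 at 3 days or CNCM I-3690 replicate 3 at 10 days.

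Genes of digestion and defence moved in both directions. *asp-17*, an aspartyl protease of the cathepsin D type, was at 3.29, 3.37 and 3.53 on CNCM I-3690 and at 3.34, 3.16 and 4.42 on CNCM I-4317 at 10 days, against 1.07, 1.60 and 1.16 on OP50. In worms fed for 3 days it was at 1.60, 1.40 and 1.17 on CNCM I-3690 and at 1.85, 1.96 and 1.64 on CNCM I-4317, against 0.94, 1.29 and 1.09 on OP50. The 6 arrays of the *Lactobacillus* diets at 10 days stood above all others, and the change on OP50 was 0.17 (adjusted p = 0.797). Its diet-by-time difference was 1.75 (standard error 0.30, adjusted p = 0.0204). *asp-4*, a lysosomal protease of the same type, was higher by less (0.78, standard error 0.19, adjusted p = 0.0961), and it kept its call in only 4 of 18 fits with 1 array left out (adjusted p up to 0.23).

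Both called cysteine proteases were lower. *cpr-2*, of the cathepsin B type, was at 1.73, 1.63 and 1.62 on CNCM I-3690 and at 1.60, 1.55 and 1.83 on CNCM I-4317 at 10 days, against 2.24, 3.59 and 3.70 on OP50. At 3 days all 9 arrays lay between 1.11 and 1.53. The OP50 arrays of 10 days were above all others, with replicate 1 the lowest of the 3. The diet-by-time difference was -1.65 (standard error 0.32, adjusted p = 0.0402), and without that array it was -2.12 (adjusted p = 6.25e-06). Without OP50 replicate 3 at 3 days, *cpr-2* (adjusted p = 0.142) and *cpz-2* (adjusted p = 0.123) lost their calls. *cpz-2*, of the cathepsin Z type, differed by -1.14 (standard error 0.21, adjusted p = 0.0289). Of 26 proteases of the gut and lysosome, 2 were thus called higher and 2 lower, and their median was -0.02.

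*ilys-2* encodes a lysozyme of the invertebrate type, an enzyme that cleaves the bacterial cell wall. At 10 days it was at 1.62, 1.10 and 1.19 on CNCM I-3690 and at 2.23, 3.02 and 1.23 on CNCM I-4317, against 4.35, 5.09 and 4.81 on OP50. At 3 days all 9 arrays lay between 0.25 and 0.92. The 3 OP50 arrays of 10 days were above all others, and the *Lactobacillus* arrays of 10 days lay between them and the 3-day arrays. Expression therefore increased between the times on both foods, by 1.12 (adjusted p = 0.00098) on the *Lactobacillus* diets and by 4.10 (adjusted p = 1.15e-06) on OP50. Its diet-by-time difference was -2.98 (standard error 0.39, adjusted p = 0.00197) and the diet difference at 10 days was -3.02 (adjusted p = 3.02e-05), with 3 of the 6 *Lactobacillus* arrays below the median of every array. It was the only called member among 16 lysozymes (8 above 0 and 8 below, median 0.01). The antimicrobial peptides and infection-response genes had no call among 48 (31 above 0, median 0.24).

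Saposin-like proteins form pores in membranes of microbes, and *spp-12* of this family increased on both foods. At 10 days it was at 6.07, 4.78 and 4.59 on CNCM I-3690 and at 5.68, 4.89 and 5.03 on CNCM I-4317, against 3.31, 3.11 and 3.03 on OP50, and at 3 days all 9 arrays lay between 0.77 and 1.70. The groups did not overlap at 10 days and did at 3 days. The diet-by-time difference was 2.19 (standard error 0.38, adjusted p = 0.0233), the only call among 18 saposin-like genes (median 0.17). Of 220 C-type lectins, *clec-145* was higher (0.97, adjusted p = 0.0888) and *clec-10* (-1.25, adjusted p = 0.0265) and *clec-85* (-1.19, adjusted p = 0.051) were lower, with a median of -0.01. A second probe set of *clec-10* showed no such difference (-0.05, adjusted p = 0.939).

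*C14C6.5*, a gene for which the annotation used here gives only a sequence name, had the lowest adjusted p of the lower genes. It was at 3.74, 3.33 and 3.07 on CNCM I-3690 and at 3.61, 3.53 and 2.81 on CNCM I-4317 at 10 days, against 5.98, 6.72 and 5.83 on OP50. At 3 days it was at 5.71, 5.36 and 5.74 on CNCM I-3690 and at 5.38, 5.25 and 4.79 on CNCM I-4317, against 4.98, 5.27 and 5.33 on OP50. Its change between 10 and 3 days was -2.03 (adjusted p = 2.65e-07) on the *Lactobacillus* diets and 0.98 (adjusted p = 0.0228) on OP50, a diet-by-time difference of -3.01 (standard error 0.31, adjusted p = 0.000333). Its other probe set gave -2.98 (adjusted p = 0.00112). *mbug-1* differed by a like amount (-2.98, standard error 0.46, adjusted p = 0.00977) in another way, since it increased on both foods, by less on the *Lactobacillus* diets (1.49, adjusted p = 0.000323) than on OP50 (4.47, adjusted p = 2.21e-06).

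**Figure D3:**
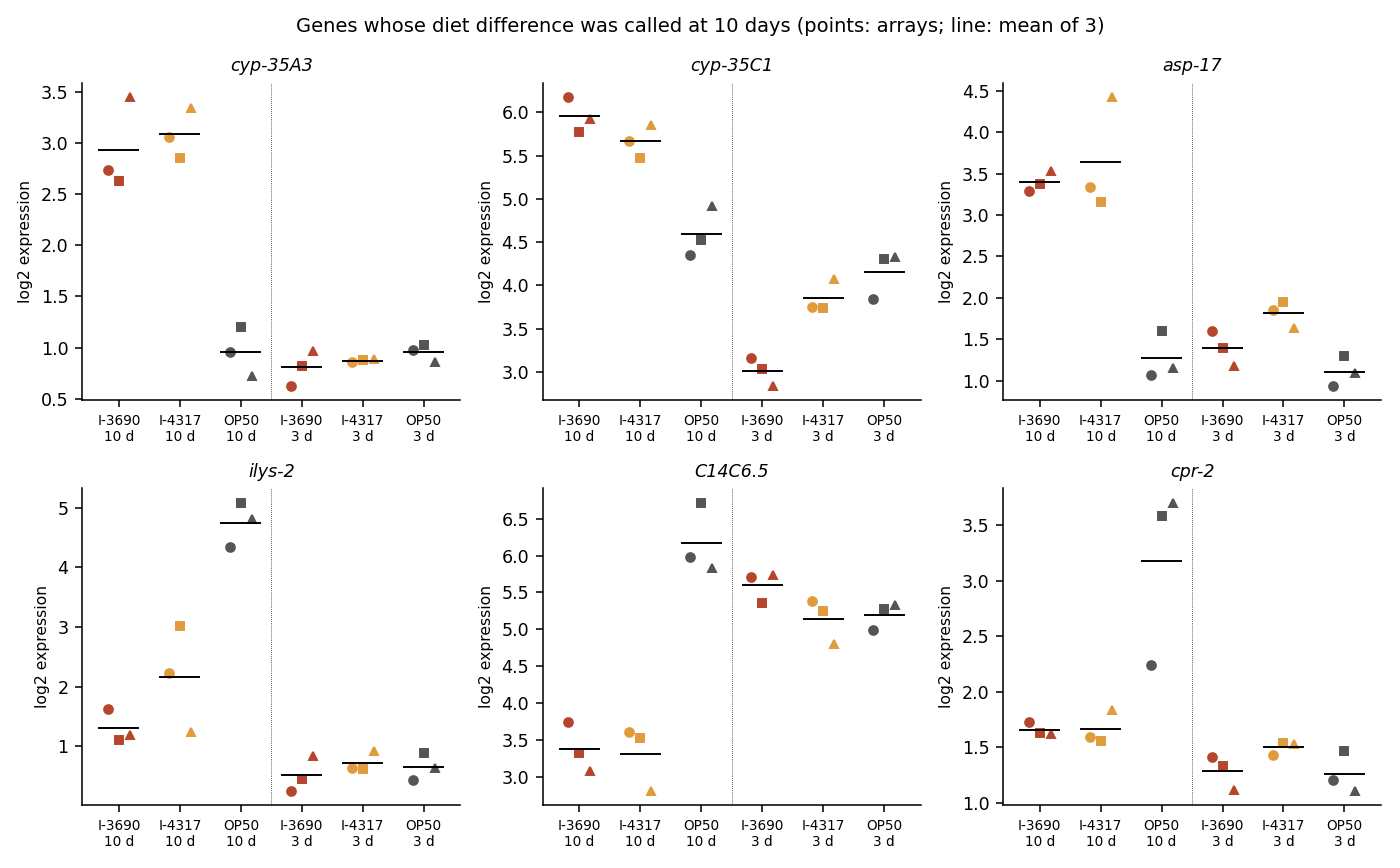
Log2 expression of 6 genes whose diet difference was called at 10 days, on each array (circles, squares and triangles are replicates 1, 2 and 3) with the mean of 3 arrays as a line, for worms fed for 10 days (left of the dotted line) and 3 days (right). *cyp-35A3*, *cyp-35C1* and *asp-17* are higher on both Lactobacillus strains than on OP50 at 10 days, and *ilys-2*, *C14C6.5* and *cpr-2* are lower.

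Of the other genes of the first pattern, *D1086.3* had the largest positive difference (2.60, standard error 0.43, adjusted p = 0.0183). It was between 4.61 and 6.39 on the *Lactobacillus* diets at 10 days, against 2.32 to 3.48 on OP50. It increased on the *Lactobacillus* diets (1.54, adjusted p = 0.000141) and fell by 1.06 on OP50 (adjusted p = 0.0873). *H25K10.4* (1.74, adjusted p = 0.00112) and *Y110A2AL.9* (2.07, adjusted p = 0.00161) were higher as well. A probe set with no gene in the annotation had the lowest adjusted p of all (2.35, standard error 0.20, adjusted p = 8.16e-05) and is named because of that value, with group means of 3.16 and 3.08 on CNCM I-3690 and CNCM I-4317 at 10 days, against 0.90 on OP50. The collagen gene *col-106* decreased on both foods, by less on the *Lactobacillus* diets (-0.99) than on OP50 (-2.12), a difference of 1.13 (standard error 0.18, adjusted p = 0.0141).

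Of the 48 named genes with a call, 14 kept it in each of the 18 fits with 1 array left out. These are *C14C6.5*, *D1086.3*, *H25K10.4*, *Y110A2AL.9*, *asp-17*, *clec-10*, *col-106*, *cyp-35A3*, *cyp-35C1*, *fbxa-163*, *ilys-2*, *mbug-1*, *spp-12* and *ugt-23*. All 14 had a diet difference called at 10 days, where 1.01% of all probe sets did. That difference is a part of the diet-by-time difference by which the 14 were chosen, on the same arrays. It therefore describes these genes and is not a separate result. Of the 184, 46 higher and 18 lower ones had it at 10 days alone, and 4 higher and 5 lower ones at both times. *cyp-35C1*, *mbug-1*, *ugt-23* and *clec-10* of the 14 were called at 3 days as well.

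Of 18 genes of fatty acid synthesis, desaturation and elongation, 3 were lower on the *Lactobacillus* diets than on OP50 at 10 days, where 0.415% of all genes were, and none was higher. *elo-2*, an elongase of palmitate, was at 3.90, 3.51 and 3.80 on CNCM I-3690 and at 4.24, 5.20 and 3.99 on CNCM I-4317 at 10 days, against 5.71, 5.01 and 5.07 on OP50, and all 9 arrays of 3 days were between 5.996 and 6.89. CNCM I-4317 replicate 2 overlapped OP50. Its diet-by-time difference was -1.56 (standard error 0.33, adjusted p = 0.0675), lost in 8 of 18 fits with 1 array left out (adjusted p up to 0.206). It was the only call for the diet-by-time difference among the 18, of which 15 lay below 0 (median -0.19). *fat-7*, the delta-9 desaturase that the study discusses, did not pass (-1.60, standard error 0.45, adjusted p = 0.143). It was at 2.14, 2.44 and 2.82 on CNCM I-3690 and at 3.17, 1.96 and 1.81 on CNCM I-4317 at 10 days, against 4.67, 4.71 and 4.06 on OP50. Among 84 genes of fatty acid breakdown and lipases, the acyl-CoA oxidase *acox-3* alone was called (1.13, adjusted p = 0.0706), with a list median of -0.02. Among 27 genes of vitamin B12, propionate and methionine metabolism, of which 24 lay below 0 (median -0.34), the call was for *sams-2* (-0.73, adjusted p = 0.0841). RefSeq lists *sams-2* as a pseudogene of the S-adenosylmethionine synthetase family, and its probe set may read related *sams* genes. *ins-2*, an insulin-like peptide, was at 1.39 to 2.61 on the *Lactobacillus* diets at 10 days, against 3.24 to 3.57 on OP50, a difference of -1.37 (adjusted p = 0.0979) that was the only call among 24 insulin-like peptides (median -0.19).

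Sperm genes were among those of the second pattern. *msd-4*, which encodes a protein with a major sperm protein domain, was at 2.84, 2.47 and 1.53 on CNCM I-3690 and at 3.31, 1.67 and 1.57 on CNCM I-4317 at 10 days, against 1.69, 1.58 and 1.71 on OP50. In worms fed for 3 days it was at 7.85, 7.64 and 6.14 on CNCM I-3690 and at 7.33, 6.56 and 4.72 on CNCM I-4317, against 3.87, 2.51 and 2.22 on OP50. The foods overlapped at 10 days and did not at 3 days, and the change between 10 and 3 days was -4.47 (adjusted p = 1.21e-06) on the *Lactobacillus* diets and -1.21 (adjusted p = 0.327) on OP50. The diet-by-time difference was -3.27 (standard error 0.78, adjusted p = 0.0961). *nsph-3.2*, of a nematode-specific peptide family, had the largest difference of all (-3.38, standard error 0.70, adjusted p = 0.0645), with all 9 arrays of 10 days between 0.61 and 1.18. At 3 days it was at 5.97, 5.99 and 3.72 on CNCM I-3690 and at 5.70, 4.79 and 3.03 on CNCM I-4317, against 1.91, 1.22 and 1.10 on OP50. The lowest *Lactobacillus* array of 3 days was thus more than 1 log2 unit above the highest of OP50.

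Of 79 sperm and spermatogenesis genes, 3 (*msd-4*, *nspd-1* and *ssp-10*) were called lower and none higher, 70 lay below 0 and the median was -1.27. This list was written with earlier results of these arrays known. At 10 days the foods differed for none of the 79 (median 0.20, with 1% of all genes called and 2172 probe sets under p of 0.05 before adjustment), and at 3 days 41 were higher on the *Lactobacillus* diets (median 1.76), where 2.29% of all genes were. Between 10 and 3 days, 55 of the 79 fell on the *Lactobacillus* diets (16.2% of all genes) and 22 on OP50 (5.47% of all genes). For 47 of the 79 the probe set was of a kind that may catch transcripts of related genes (a letter before its ending marks it), and the median was -1.66 there and -0.21 for the other 32. *msd-4* kept its call in 4 and *nsph-3.2* in 9 of the 18 fits with 1 array left out. Without CNCM I-3690 replicate 3 at 3 days, the lowest of its group in sperm transcripts, the adjusted p of *msd-4* was 0.0262 and that of *nsph-3.2* was 0.00474. CNCM I-4317 replicate 3 at 3 days was lower still. Leaving out an array low in sperm transcripts raises the 3-day mean of sperm genes, so these values are no further support. *ZK1248.4* (-3.09, adjusted p = 0.0485), *C34D4.3* (-2.81, adjusted p = 0.078), *T16A9.5* (-2.77, adjusted p = 0.0883), *F53B6.4* (-2.78, adjusted p = 0.0961) and *R09E10.6* (-2.69, adjusted p = 0.0961), which carry sequence names only, had the same form, with all 6 *Lactobacillus* arrays above OP50 at 3 days and overlap at 10 days.

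**Figure D4:**
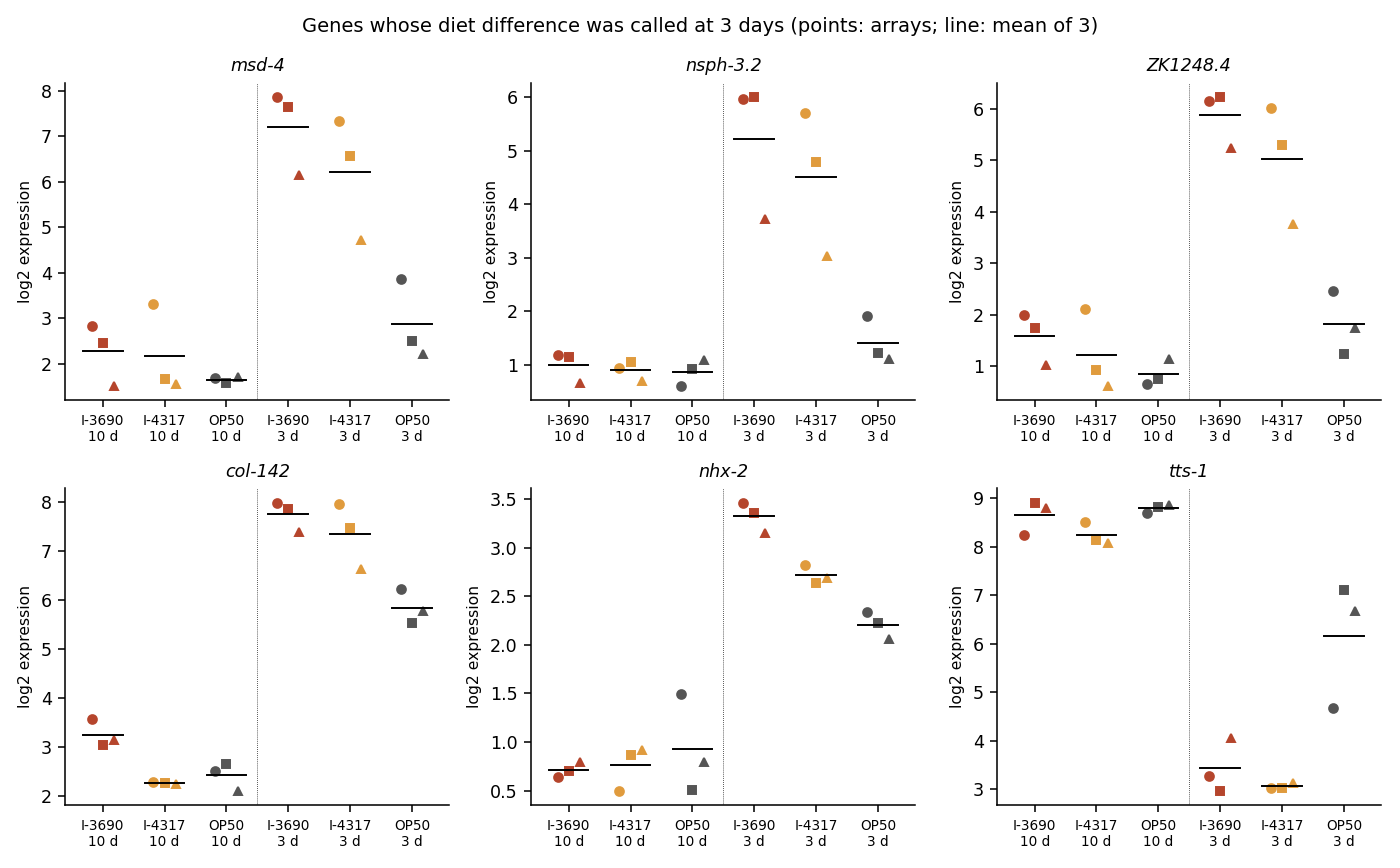
Log2 expression of 6 genes whose diet difference was called at 3 days, on each array (circles, squares and triangles are replicates 1, 2 and 3) with the mean of 3 arrays as a line, for worms fed for 10 days (left of the dotted line) and 3 days (right). *msd-4*, *nsph-3.2*, *ZK1248.4*, *col-142* and *nhx-2* are higher and *tts-1* is lower on both Lactobacillus strains than on OP50 at 3 days, and the foods overlap at 10 days.

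The summed levels of some other tissue lists also separated the foods at 3 days, and their part in these results was not tested. Collagens (29090 to 36590 on the *Lactobacillus* diets, against 25650 to 28970 on OP50) and genes of intestinal uptake (602 to 788, against 485 to 565) were higher on the *Lactobacillus* diets. Muscle genes were higher by little (5305 to 6716, against 5021 to 5289). Oocyte genes and early embryo transcripts (161 to 196, against 201 to 212) were lower, and the neuron, moulting and germ line lists overlapped between the foods. Such sums weigh bright genes most. By mean log2 level, collagens (3.89 on CNCM I-4317 replicate 3, against 3.998 on OP50 replicate 1) and muscle genes (6.25, against 6.34) overlapped between the foods. For 28 oocyte and eggshell genes the summed linear level was 10760 to 11870 on the *Lactobacillus* diets at 10 days, against 9366 to 11750 on OP50, and 6444 to 8371 on the *Lactobacillus* diets at 3 days, against 8765 to 8948 on OP50. None of these 28 genes passed the diet-by-time test (before adjustment, 3024 of all 22625 probe sets had p under 0.05), 27 lay above 0 and the median was 0.38. Of the 5 vitellogenins, which all lay above 0 (median 0.42), *vit-4* was called (0.64, standard error 0.14, adjusted p = 0.078). It was at 10.998 to 11.30 on the *Lactobacillus* diets at 10 days, against 10.85 to 10.95 on OP50, and at 10.50 to 10.93 on the *Lactobacillus* diets at 3 days, against 11.03 to 11.26 on OP50. The arrays of the foods were thus apart at both times, in opposite order, but the diet difference did not pass at 10 days (0.26, limma, adjusted p = 0.395). At 3 days it passed (-0.38, adjusted p = 0.0696). The diet-by-time call was kept in 7 of the 18 fits with 1 array left out. Near-identical yolk genes share probes, and 2 further probe sets of *vit-4* did not pass (0.44 and 1.04, adjusted p = 0.233 and 0.267), while 2 that carry both *vit-4* and *vit-5* did (0.64 and 0.61, adjusted p = 0.0883 and 0.0961).

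**Figure D5:**
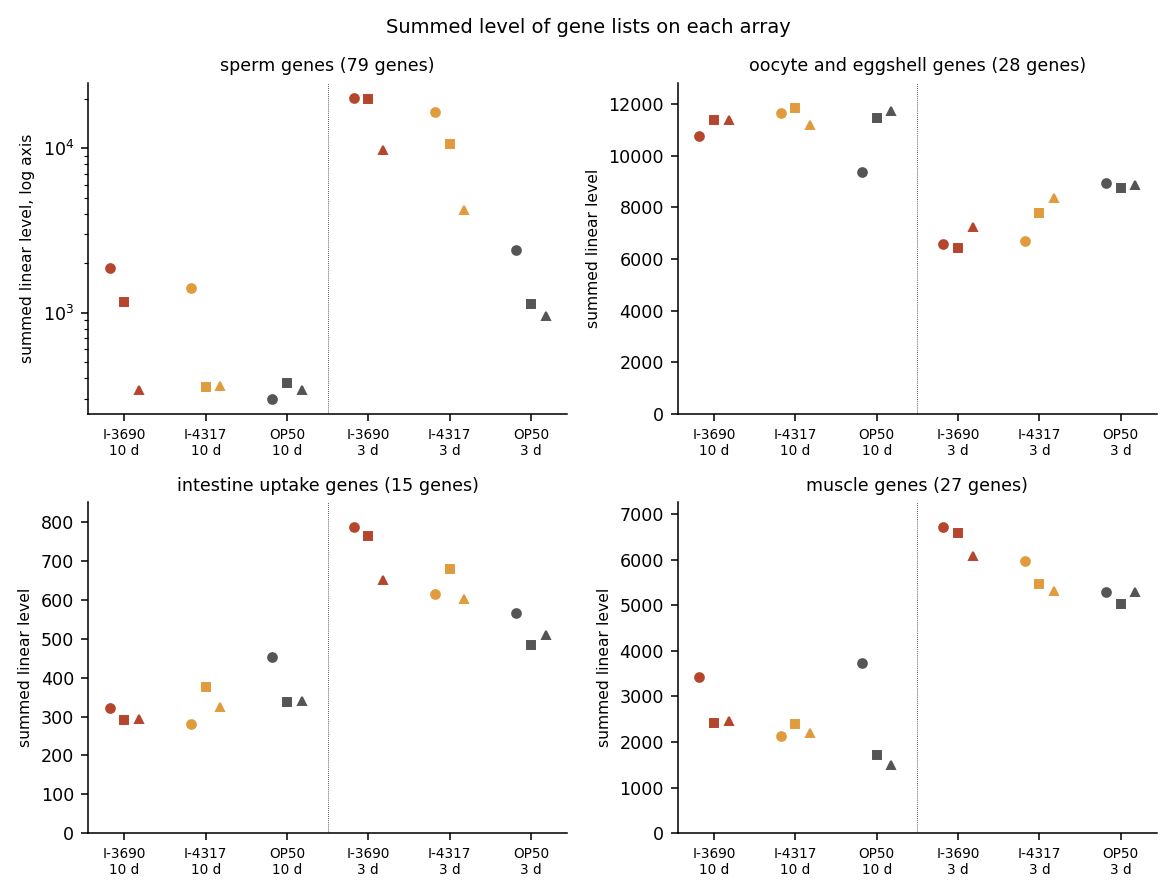
Summed linear level of 4 gene lists on each array (circles, squares and triangles are replicates 1, 2 and 3; 10 days left of the dotted line, 3 days right), with a log axis for the 79 sperm genes and axes from 0 for the others. At 3 days the 6 Lactobacillus arrays have sperm levels of 4204 to 20170, above 954 to 2408 on OP50, and oocyte levels of 6444 to 8371, below 8765 to 8948 on OP50.

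Of 146 cuticle collagens, 116 were called lower at 10 than at 3 days on the *Lactobacillus* diets (16.2% of all genes) and 69 on OP50 (5.47% of all genes). None was called higher. On OP50, 3 arrays per time against 6 give less power, and replicate 1 at 10 days had a high summed collagen level (11770, against 4241 and 3167). The diet-by-time differences of the collagens went both ways, with *col-149* (-1.98, adjusted p = 0.0596) and *col-142* (-1.38, adjusted p = 0.0995) lower and *col-106* and *col-74* (1.003, adjusted p = 0.0995) higher, around a median of -0.23. A second probe set of *col-149*, of low signal (highest group mean 0.64), gave 0.16 (adjusted p = 0.628). With 1 array left out, *col-149* kept its call in 10 of 18 fits, *col-142* and *col-74* in 5 each and *col-106* in all 18. *col-142* was at 3.56, 3.02 and 3.14 on CNCM I-3690 and at 2.27, 2.26 and 2.24 on CNCM I-4317 at 10 days, against 2.51, 2.64 and 2.10 on OP50. In worms fed for 3 days it was at 7.99, 7.86 and 7.40 on CNCM I-3690 and at 7.97, 7.47 and 6.63 on CNCM I-4317, against 6.23, 5.52 and 5.78 on OP50. The 6 *Lactobacillus* arrays of 3 days stood above OP50, with replicate 3 again the lowest of each strain. *grd-10*, a hedgehog-related gene, had a larger value (-2.82, standard error 0.65, adjusted p = 0.0883). Its size depended on OP50 replicate 1 at 10 days (4.27, against 1.55 and 1.41). Without that array it was -1.88, and the call was kept (adjusted p = 0.0402). Over the 18 fits with 1 array left out, *grd-10* kept its call in 7 (adjusted p up to 0.233).

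*tts-1*, a long non-coding RNA that is abundant in long-lived *daf-2* mutants, was the largest positive difference of the second pattern. At 10 days it was at 8.25, 8.91 and 8.80 on CNCM I-3690 and at 8.51, 8.14 and 8.09 on CNCM I-4317, against 8.70, 8.82 and 8.86 on OP50. At 3 days it was at 3.28, 2.97 and 4.06 on CNCM I-3690 and at 3.04, 3.03 and 3.14 on CNCM I-4317, against 4.68, 7.11 and 6.67 on OP50. All groups reached a like level at 10 days, while at 3 days the OP50 arrays were above the others, with replicate 1 well below the other OP50 arrays. Its diet-by-time difference was 2.56 (standard error 0.53, adjusted p = 0.0608). Without OP50 replicate 1 at 3 days it was 3.30 (adjusted p = 0.000291), and without OP50 replicate 2 at 3 days it was 2.08 (adjusted p = 0.18).

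Both called genes of the intestinal surface were lower. *act-5*, the actin of the microvilli, was at 5.80, 5.20 and 5.16 on CNCM I-3690 and at 5.27, 6.10 and 5.71 on CNCM I-4317 at 10 days, against 6.80, 6.004 and 5.81 on OP50. In worms fed for 3 days it was at 8.04, 8.05 and 7.79 on CNCM I-3690 and at 7.76, 8.10 and 7.68 on CNCM I-4317, against 7.52, 6.91 and 7.32 on OP50. The foods overlapped at 10 days only, and the diet-by-time difference was -1.32 (standard error 0.32, adjusted p = 0.0961). The diet difference of *act-5* passed limma's test neither at 10 days (-0.67, adjusted p = 0.286) nor at 3 days (0.65, adjusted p = 0.157). Its diet-by-time call was kept in 6 of the 18 fits with 1 array left out. *nhx-2*, the sodium-proton exchanger that works with peptide uptake, differed by -1.01 (standard error 0.23, adjusted p = 0.0845). Without OP50 replicate 1 at 10 days, the array high in muscle and moulting transcripts, *act-5* was at -1.02 (adjusted p = 0.199) and *nhx-2* at -0.73 (adjusted p = 0.116). Of the 15 genes of uptake, brush border and defecation, these 2 were called, all 15 lay below 0 and the median was -0.62. The peptide transporter gene *pept-1* had the lowest value of the list and did not pass (-1.50, adjusted p = 0.275). For the 27 muscle genes the median was -0.37, with *unc-97*, a LIM-domain protein of muscle attachment sites, as the only call (-0.81, adjusted p = 0.0961).

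The strains were also compared with OP50 and with each other. With OP50 as the shared comparison, 183 probe sets (0.809%) passed for CNCM I-3690, 74 higher (0.327%) and 109 lower (0.482%), and 52 (0.23%) passed for CNCM I-4317, 36 higher (0.159%) and 16 lower (0.0707%). These comparisons share the OP50 arrays. No probe set passed limma's test of CNCM I-3690 against CNCM I-4317 (1228 had an unadjusted p under 0.05). This does not show that the strains act alike. The 95% interval of their difference left out 0 for 31 of the 184 (16.8%), against 5.43% of all probe sets. The 184 were chosen on the same arrays and the same estimate of spread, which favours narrow intervals, so this excess does not test whether the strains differ. *cyp-35A3* differed from OP50 by 2.12 for CNCM I-3690 (adjusted p = 0.00153) and by 2.20 for CNCM I-4317 (adjusted p = 0.0027), and the interval of the difference between strains was -0.64 to 0.46. For *spp-12* the values were 2.21 and 2.17, with an interval of -0.89 to 0.97. The values lay further apart for *cyp-35C1*, with 2.50 for CNCM I-3690 and 1.37 for CNCM I-4317 (interval 0.62 to 1.65, adjusted p = 0.31). For *H25K10.4* they were 2.38 and 1.11 (interval 0.76 to 1.78, adjusted p = 0.31). *fat-7* differed from OP50 by -2.59 for CNCM I-3690 (adjusted p = 0.0583) and by -0.60 for CNCM I-4317 (adjusted p = 0.744), with an interval of -3.10 to -0.88 (adjusted p = 0.61). At 3 days *fat-7* was at 7.001, 7.28 and 6.22 on CNCM I-3690 and at 5.25, 3.95 and 4.87 on CNCM I-4317, against 6.13, 6.13 and 6.502 on OP50.

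The study followed the insulin-like pathway, in which the receptor DAF-2 holds back the transcription factor DAF-16, and the stress regulator SKN-1. *daf-2* was near the floor of the arrays, at 0.84 to 1.22 on the *Lactobacillus* diets at 10 days, against 0.81 to 1.02 on OP50, and its diet-by-time difference was 0.25 (standard error 0.16, adjusted p = 0.537). *daf-16* was at 5.22 to 5.50 on the *Lactobacillus* diets at 10 days, against 5.20 to 5.47 on OP50 (0.05, standard error 0.15, adjusted p = 0.91). That value averages -0.17 for CNCM I-3690 (adjusted p = 0.745) and 0.28 for CNCM I-4317 (adjusted p = 0.635). The 95% interval of the difference between strains was -0.82 to -0.07 (limma, adjusted p = 0.872). For *skn-1* the diet-by-time difference was 0.15 (standard error 0.26, adjusted p = 0.841). The small values of *daf-16* and *skn-1* over both strains were below 0 after cyclic loess. A transcript level does not show the activity of these proteins. The study compared CNCM I-3690 with CNCM I-4317 at 3 days, a comparison not made here. No member passed the diet-by-time test, taken over both strains, among 14 genes associated with DAF-16 (median 0.05) and 21 components of insulin and TOR signaling (median 0.07). The same held for 32 antioxidant enzymes (median 0.05) and 45 glutathione S-transferases (median -0.07). For CNCM I-3690 alone, 1 gene of the DAF-16 list was lower (0.482% of all probe sets) and 1 component of insulin and TOR signaling was higher (0.327%). In all, 28 of 46 lists had no member called for the diet-by-time difference over both strains. Among them were the 13 chaperones of the endoplasmic reticulum (median -0.30) and the 18 subunits of the vacuolar ATPase (median -0.39). In the other large families the calls were few. Of 310 F-box genes *fbxa-107* (0.93, adjusted p = 0.0961) and *fbxa-163* (0.65, adjusted p = 0.0188) were higher, and of 254 nuclear hormone receptors *nhr-31* was lower (-0.89, adjusted p = 0.0883).

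For 11 probe sets the change was called in opposite directions on the 2 foods. Over all probe sets, 23.4% were called higher and 15.7% lower at 10 than at 3 days on the *Lactobacillus* diets, and 5.41% higher and 5.37% lower on OP50. *D1086.3* and both probe sets of *C14C6.5* are given above, and the following were named after their values were seen. *klp-7*, a kinesin that takes microtubules apart, increased by 0.51 on the *Lactobacillus* diets (adjusted p = 0.00322) and fell by 0.50 on OP50 (adjusted p = 0.0889). *skr-19*, which encodes a protein related to SKP1 of ubiquitin ligases, fell by 0.22 on the *Lactobacillus* diets (adjusted p = 0.0233) and increased by 0.47 on OP50 (adjusted p = 0.00711). The rest of the 11 were *Y9D1A.1*, *K11H3.8*, *C17H12.2*, *F09E5.12* and 2 probe sets with several symbols, all with diet-by-time differences below 1 in size except 1 (1.99).

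The following genes were also named after their values were seen. *msh-5*, which is needed for meiotic crossovers, differed by 1.05 (adjusted p = 0.0154), *mex-5*, an RNA-binding protein of embryonic polarity, by 0.88 (adjusted p = 0.0841) and *hrde-1*, an Argonaute of inherited silencing, by 0.72 (adjusted p = 0.0706). None of the 36 genes of germ line proliferation and meiosis on the fixed list passed, although 33 lay above 0 (median 0.16). Lower were *endu-2*, an endoribonuclease (-2.01, adjusted p = 0.0262), *haf-9*, a transporter of lysosome-related granules of the intestine (-2.07, adjusted p = 0.0338), and *haly-1*, a histidine ammonia-lyase (-1.38, adjusted p = 0.0152).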

How the data were processed

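Whole worms were measured on the Affymetrix GeneChip *C. elegans* Genome Array, 18 arrays in 6 groups of 3. The deposited values are log2 expression per probe set, which the authors made by robust multi-array averaging (RMA) with quantile normalization. They lay between -0.06 and 12.0, with array medians of 1.27 to 1.40. The number of arrays limits the precision. Values were used as deposited. A mean per group was fitted with limma 3.58.1 in R 4.3.3 (12 residual and 4.09 prior degrees of freedom), 8 comparisons were taken from it, and p-values were Benjamini-Hochberg adjusted over 22625 probe sets within each and called under 0.1. The code was tested on simulated data. GEO's platform annotation gave 1 symbol for 20766 probe sets, several for 887 and none for 972. A gene with several probe sets was read by the one of highest mean for the 46 lists (17118 genes). Named genes were the 12 highest and 12 lowest called differences among probe sets with 1 symbol and a group mean above the median of all values, up to 4 called members per list, and *daf-2*, *daf-16*, *skn-1* and *fat-7*, which the study discusses. The contrast, members and lists were chosen with earlier results of these data known. Alternatives covered the threshold, replicate block, dim-probe filter, centring, cyclic loess, array weights, probe set choice and each array left out. Promoter motifs were not analysed here.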

Additional observations from a re-analysis of the deposited data

Results flagged for a closer look

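The change between 10 and 3 days differed between the *Lactobacillus* diets and OP50 by limma's test of the difference itself for 184 probe sets. Of these, 11 had a called change in opposite directions on the 2 foods.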

How the results depend on the processing

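The count of 184 for the diet-by-time difference was 53 at an adjusted p under 0.05 and 17 under 0.01. For CNCM I-3690 against OP50 these counts were 42 and 14, for CNCM I-4317 against OP50 22 and 4, for the foods at 10 days 132 and 43 and at 3 days 332 and 76, and between 10 and 3 days, under 0.01, 5502 on the *Lactobacillus* diets and 909 on OP50. Cyclic loess gave 102 (CNCM I-4317 alone 28), probe sets without a suffix letter 83 (CNCM I-4317 alone 33, the foods at 3 days 289, and between the times 5135 on the *Lactobacillus* diets and 1370 on OP50), and 1 probe set per gene 31 for CNCM I-4317. Array weights gave 1066 (CNCM I-3690 1757, CNCM I-4317 157, between strains 34, foods at 3 days 3583). With the mean of the sperm list as a term, which was added once the data had been seen, 19 of the 184 passed and no others (13 for each strain alone), 0 for the foods at 3 days, and 1187 on the *Lactobacillus* diets and 1352 on OP50 between the times. The small positive value of *skn-1* became -0.013 under cyclic loess and -0.081 with the sperm term, and that of *daf-16* became -0.11 and -0.14. The causes of these moves were not tested.

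With 1 array left out, the count of 184 ranged over 41 to 864. It was 50 and 55 without CNCM I-3690 replicates 1 and 2 at 3 days, 102, 73 and 584 without CNCM I-4317 replicates 1, 2 and 3 at 3 days, and 50 and 41 without OP50 replicates 2 and 3 at 3 days. It was 72 and 59 without CNCM I-3690 replicates 2 and 3 at 10 days, 83 without CNCM I-4317 replicate 3 at 10 days, and 107 and 111 without OP50 replicates 1 and 2 at 10 days. The 864 came without CNCM I-3690 replicate 3 at 3 days. The ranges were 25 to 1119 for CNCM I-3690 alone, 15 to 170 for CNCM I-4317 alone, 0 to 92 between strains, 110 to 1817 for the foods at 3 days, 140 to 310 at 10 days, 7967 to 9105 for the change on the *Lactobacillus* diets and 1606 to 2793 for that on OP50.

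The labels give the replicate numbers no shared batch, and over 45 pairs same-numbered arrays had deviations with r of -0.317 to 0.474, with 6 of 18 arrays correlating best with their own number, so the numbers were not taken as pairs. In each 3-day group, however, replicate 1 had the highest and replicate 3 the lowest summed sperm level. The replicate number as a block gave 432 probe sets (405 for CNCM I-3690, 98 for CNCM I-4317). Of 1531 values of named genes under all alternatives, 1027 kept direction and side of the threshold, 498 lost the call, 2 gained it and 4 changed sign. For *daf-2*, near the floor of the arrays, a difference was not detectable at this signal.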
